A study of Chlorocebus sabaeus with 10 samples.

Results

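Mitochondrial ribosomal protein genes were examined in livers of vervet monkeys, all female, after a diet high in fructose (HFr) or chow. They were taken as every transcript whose gene symbol begins with MRPL or MRPS followed by a digit, and 59 of the 28078 transcripts in the deposited table met this rule. Each of the 59 genes had 1 transcript, 37 of them named MRPL and 22 named MRPS. All 10 animals had eaten chow before the study. For 6 weeks 5 of them received HFr and the other 5 stayed on chow. The study assigned the animals so as to balance age and body weight. The mean age it gives was higher on HFr, without a significant difference, and age was not a term in the comparisons here. A single library of polyadenylated RNA was sequenced from each liver biopsy, so each value comes from 1 animal and from a mixture of liver cell types. In such bulk samples, fewer cells of a type and less RNA per cell cannot be told apart.

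The mitochondrial ribosome translates the messenger RNAs of the mitochondrial genome, which encode core subunits of the respiratory chain and of ATP synthase. Its RNAs are transcribed inside the organelle, whereas all its proteins are encoded in the nucleus, made in the cytosol and imported. Part of the proteins have counterparts in bacterial ribosomes and the others were acquired by the mitochondrial lineage. Hepatocytes are rich in mitochondria, which carry out beta-oxidation and parts of gluconeogenesis and the urea cycle.

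The libraries held 2977282 to 4992505 estimated counts, of which 34.7% to 73.6% lay on transcripts of the mitochondrial genome (95% Wilson intervals of at most ± 0.0549 points, counting error only). This left 864571 to 2657103 counts on nuclear transcripts, a 3.07-fold range that ran through both diets. All 10 hepatocyte markers were present, with a summed normalized count between 41226 and 81837 in every animal. Of 5 skeletal muscle markers, CKM, MYH2 and MYH7 had no counts in any library, and the list summed to at most 2.74 normalized counts. Of 5 stellate cell and fibroblast markers, 4 had counts, with sums of 144 to 677, and LRAT had none. A normalized count here is an estimated count scaled by TMM and by library size (CPM).

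The 59 genes took a small and steady share of the nuclear counts. Summed over the genes there were 1834 counts in the library with the fewest nuclear counts and 5526 in that with the most. The share of nuclear counts stayed between 0.190% and 0.243%. On HFr the shares of animals 1 to 5 were 0.221%, 0.243%, 0.212%, 0.221% and 0.190%. On chow they were 0.217%, 0.211%, 0.208%, 0.212% and 0.209%. The diets overlapped, and both the highest and the lowest share belonged to HFr animals. The 95% Wilson intervals of the 5 chow animals all overlapped one another, from 0.200% to 0.225% over all 5. The interval of HFr animal 2 (0.236% to 0.25%) lay above those of the other 9 animals and that of HFr animal 5 (0.185% to 0.196%) lay below them. These intervals cover counting error only. The mean share was 0.217% ± 0.0190 (SD, n = 5) on HFr and 0.212% ± 0.00354 (SD, n = 5) on chow. Over the 10 animals the coefficient of variation of the share was 6.17%. It was 11.1% for the share of 25 cytosolic ribosomal protein genes and 13.1% for that of 66 nuclear genes of the respiratory chain and ATP synthase. Both of these lists hold the genes whose symbol in the deposited table matched a pattern. They may therefore lack members of each family and take in genes that are not subunits, as RPS19BP1 in the first list.

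**Figure D1:**
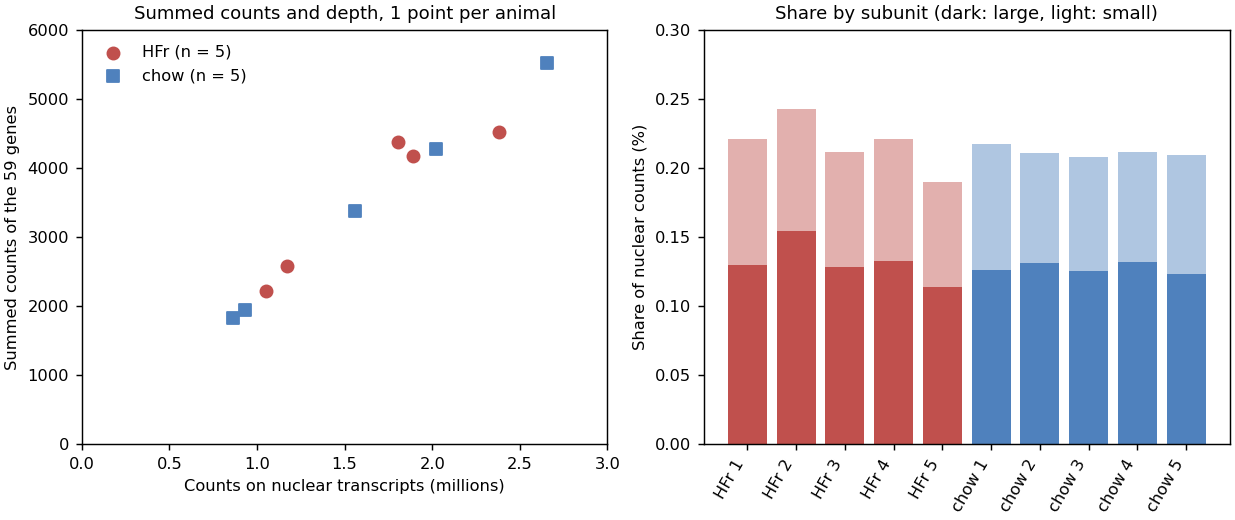
Left, the summed estimated counts of the 59 mitochondrial ribosomal protein genes against the counts on nuclear transcripts, with 1 point per animal. Right, their share of nuclear counts in percent for each animal, with large subunit genes in the dark and small subunit genes in the light part of the bar. The sums rise with the nuclear counts from 1834 to 5526 while the shares stay between 0.190% and 0.243%.

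The subunits kept a similar ratio to each other. Counting MRPS30 and MRPS18A with the large subunit, where their proteins sit, 39 genes belonged to the large and 20 to the small subunit. The counts of large over small subunit genes had a ratio of 1.55 ± 0.126 (SD, n = 5) on HFr and 1.53 ± 0.118 (SD, n = 5) on chow. The lowest ratio, 1.39, was that of chow animal 1, and the highest, 1.76, was that of HFr animal 2.

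Whether HFr altered the expression of single genes was asked with edgeR's quasi-likelihood test, fitted over all 7948 transcripts with enough counts. Of the 59 genes, 52 were tested. Of these, 31 had a higher and 21 a lower fitted level on HFr, and the median log2 fold change was 0.06, beside -0.00075 over all tested transcripts. The quartiles of the log2 fold change were -0.09 and 0.21, where those over all transcripts were -0.17 and 0.17. The share with a higher level was 59.6%, against 49.8% of all tested transcripts. Without chow animal 1 the median was -0.02, with 24 of 53 genes higher. In TMM-scaled values this animal had the lowest level of the gene set, although the gene set took the highest share of nuclear counts on chow in it (0.217%). In this library, 9 of the 52 genes were above their own mean over the animals, whereas 20 to 38 were in the other animals. Normalized counts divide by the TMM-scaled library. This was 2.81 times the nuclear counts in chow animal 1 and 2.05 to 2.47 times in the others. The 10 most abundant nuclear transcripts of chow animal 1 took 15.9% of nuclear counts, against 19.2% to 24.3% in the others. Its summed level of stellate cell and fibroblast markers, 677 normalized counts, was the highest of all animals (144 to 557 in the others), and its hepatocyte marker sum of 41226 was the lowest. The part of these transcripts and markers in this scaling and in the low normalized values of chow animal 1 was not tested.

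MRPL53 was the only gene with an unadjusted p under 0.05, which is 1.92% of the 52 genes, where 4.29% of all tested transcripts had one. None passed after Benjamini-Hochberg adjustment over all 7948 transcripts in edgeR, where the smallest adjusted p of the genes was 0.99957, nor did any other transcript in the table. DESeq2 likewise called none of the 52 genes, and 2 of all transcripts. In no gene were all 5 HFr animals above or all 5 below the 5 chow animals, a separation seen in 0.541% of all tested transcripts. The 95% confidence interval of the log2 fold change lay within a 2-fold change in either direction for 45 of the 52 genes (86.5%, against 79.1% of all transcripts) and within a 1.5-fold change for 22 (42.3%, against 26.9%). The 7 genes whose intervals reached beyond a 2-fold change were MRPL17, MRPL18, MRPL42, MRPL53, MRPS14, MRPS23 and MRPS34. The interval included 0 for every tested gene other than MRPL53. The median count per gene was 28 to 73 in the 10 libraries.

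**Figure D2:**
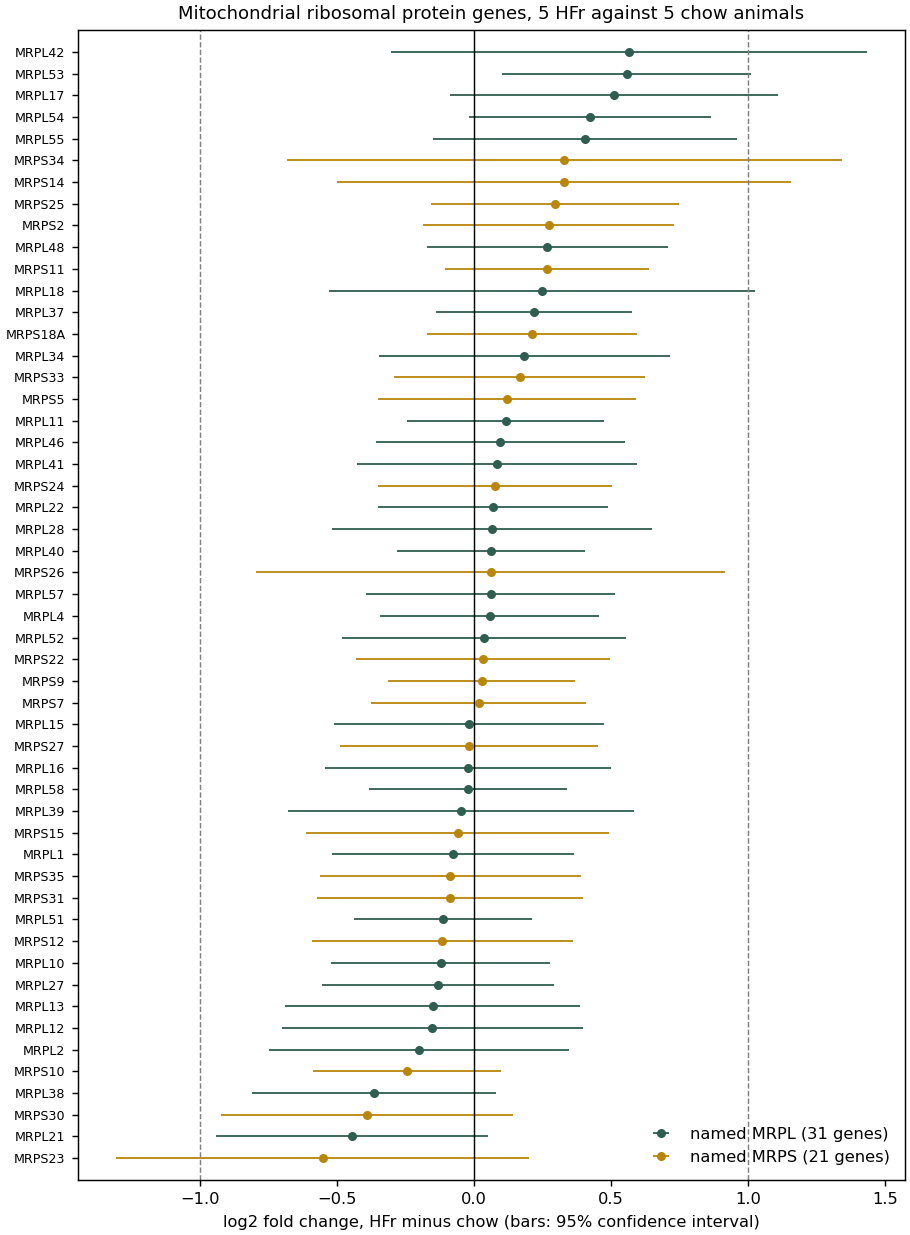
Log2 fold change (HFr minus chow, x axis) of the 52 tested genes with its 95% confidence interval from edgeR, ordered by size, with genes named MRPL and MRPS in different colours. Dashed lines mark a 2-fold change in either direction. The estimates run from -0.55 for MRPS23 to 0.57 for MRPL42, and the interval of MRPL53 alone does not reach 0.

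MRPL53 (ENSCSAG00000015617), which encodes a protein of the large subunit without a bacterial counterpart, lies on chromosome 14 of ChlSab1.1 from 32805381 to 32806258 on the plus strand. Its normalized counts were 13.6, 10.5, 11.7, 9.77 and 8.70 in HFr animals 1 to 5. In chow animals 1 to 5 they were 8.23, 8.76, 5.87, 6.06 and 7.35. Of the HFr animals, 4 were above every chow animal, and HFr animal 5 lay just under chow animal 2. The means were 10.9 ± 1.87 (SD, n = 5) on HFr and 7.25 ± 1.28 (SD, n = 5) on chow. On the log2 scale the difference was 0.56, with a standard error (SE) of 0.21, a 95% confidence interval from 0.10 to 1.01 and an unadjusted p of 0.0201 in edgeR. The estimated counts behind these values were 12 to 47 per library. The unadjusted p was 0.0585 without HFr animal 1, 0.0527 without chow animal 3 and 0.218 with scaling by library size only.

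**Figure D3:**
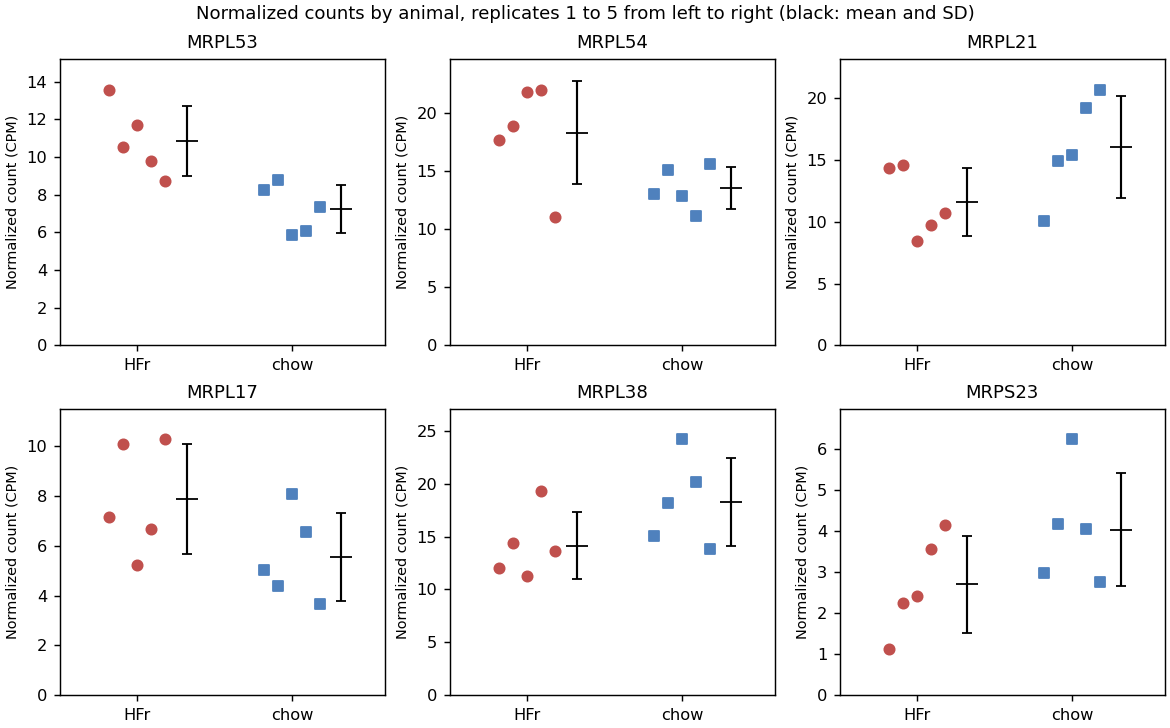
Normalized counts (CPM, y axis) of the 6 genes with the smallest unadjusted p, 1 point per animal in the order of the replicate numbers, with the mean and SD of each diet (n = 5) in black. The diets overlap in all 6 panels. MRPL53 comes closest to separation, with 4 HFr animals above the highest chow animal at 8.76.

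The other large subunit genes with small p-values went in both directions. MRPL54, also without a bacterial counterpart, had 17.7, 18.8, 21.8, 22.0 and 11.1 normalized counts on HFr and 13.0, 15.1, 12.8, 11.1 and 15.6 on chow. The first 4 HFr animals were above all chow animals, and HFr animal 5 was just below the lowest of them. The difference was 0.42 on the log2 scale (SE 0.21, unadjusted p = 0.0601 in edgeR), and the unadjusted p was 0.00761 in edgeR without HFr animal 5. MRPL21, the counterpart of bacterial L21, had 14.3, 14.6, 8.47, 9.77 and 10.7 on HFr and 10.1, 14.9, 15.4, 19.2 and 20.7 on chow. No HFr animal reached the mean on chow, yet chow animal 1 was lower than 3 of them. The estimate for MRPL21 was -0.45 (SE 0.23, unadjusted p = 0.0741 in edgeR), and the unadjusted p was 0.0456 without HFr animal 2 and 0.0197 without chow animal 1. MRPL17, the counterpart of bacterial L17, had 7.16, 10.1, 5.24, 6.66 and 10.3 on HFr and 5.03, 4.38, 8.07, 6.57 and 3.68 on chow. Only HFr animals 2 and 5 were above the whole chow range. The estimate of 0.51 (SE 0.28) had an unadjusted p of 0.0880 in edgeR, and of 0.0280 without chow animal 3.

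MRPL38 encodes a protein of the central protuberance of the large subunit. It had 12.1, 14.4, 11.3, 19.3 and 13.7 normalized counts on HFr and 15.1, 18.2, 24.2, 20.2 and 13.8 on chow, so that HFr animals 1, 3 and 5 were under the chow range. MRPL38 had an estimate of -0.37 (SE 0.21, unadjusted p = 0.0991 in edgeR, and 0.0266 without HFr animal 4). The gene overlaps FBF1 on the same strand, which had a mean of 72.2 counts, so reads of both genes could be exchanged in the counting. MRPL55, another large subunit gene, had 3.76 to 6.78 normalized counts in the HFr group against 3.03 to 4.80 in the chow group, and the estimate was 0.41 (SE 0.26, unadjusted p = 0.139 in edgeR). An alternative with the study's equal-variance test, run here on log2 values of the 7948 transcripts tested in edgeR, gave MRPL55 an unadjusted p of 0.0263. The highest fold change of all was that of MRPL42, at 0.57 with an SE of 0.41. It rested on 2 to 22 counts per library and had an unadjusted p of 0.184 from edgeR (0.0415 without chow animal 3).

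The protein of MRPS30 carries a small subunit name but belongs to the large subunit. Its normalized counts were 5.28, 4.04, 3.23, 4.22 and 4.35 on HFr and 4.34, 5.47, 7.15, 4.55 and 5.97 on chow. No HFr animal exceeded the chow mean, and 3 were below every chow animal. The estimate was -0.39 on the log2 scale (SE 0.25, unadjusted p = 0.139 in edgeR). MRPS18A, a paralog of a small subunit protein that likewise sits in the large subunit, had 4 HFr animals above and 1 below the chow range of 19.4 to 23.0. Its means were 25.0 ± 5.49 (SD, n = 5) on HFr and 21.6 ± 1.37 (SD, n = 5) on chow. The estimate was 0.21 with an SE of 0.18. MRPS16, MRPS18B, MRPS18C and MRPS36 were not among the symbols of the deposited table. Of the list of subunit symbols used here, 20 were absent from it, so the shares and the subunit ratio rest on the 59 genes present.

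In the small subunit no gene had an unadjusted p under 0.05. MRPS23, a protein acquired by mitochondria, had the lowest fold change of all 52 genes. Its normalized counts were 1.13, 2.24, 2.42, 3.55 and 4.15 on HFr and 2.97, 4.16, 6.24, 4.04 and 2.76 on chow. HFr animals 1 to 3 were below the chow range and the others within it, and the estimate was -0.55 (SE 0.35, unadjusted p = 0.139 in edgeR). Its counts were 3 to 34 per library. MRPS11, a protein of the platform of the small subunit, had 16.1 to 22.2 on HFr and 12.1 to 19.2 on chow, with an estimate of 0.27 and an SE of 0.17. MRPS10 went the other way, with 14.9 to 20.0 on HFr and 16.7 to 22.6 on chow, an estimate of -0.25 and an SE of 0.16. Both are counterparts of bacterial proteins, and the diets overlapped in both.

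MRPL10 and MRPL12 make up the stalk that recruits the translation factors, and MRPL11 lies at its base. Their log2 fold changes were -0.12, -0.15 and 0.12, with SEs of 0.19, 0.26 and 0.17. In MRPL12, HFr animal 2 had 16.1 normalized counts and the other HFr animals 7.72 to 9.80, whereas the chow animals ran from 8.68 to 16.2. MRPL58, the peptidyl-tRNA hydrolase that frees stalled chains and became part of the large subunit, had 15.5 ± 2.08 (SD, n = 5) on HFr and 15.8 ± 1.84 (SD, n = 5) on chow. Its 95% confidence interval, from -0.38 to 0.34 on the log2 scale, was among those within a 1.5-fold change. MRPS12, the decoding site protein, had a log2 fold change of -0.12 with an SE of 0.22. It overlaps an unnamed gene on the opposite strand with a mean of 12 counts, and strand use in the counting is not stated. MRPS2 had a log2 fold change of 0.27 with an SE of 0.21, and MRPS22, a small subunit protein without a bacterial counterpart, one of 0.03 with an SE of 0.22.

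Split by descent, the 26 tested genes with a bacterial counterpart had a median log2 fold change of 0.02 (14 higher, 12 lower). The 25 without one had a median of 0.06 (16 higher, 9 lower), and MRPL55 was put in neither class. By subunit the medians were 0.06 for the 33 large and 0.03 for the 19 small subunit genes, with 19 and 12 higher.

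The genes lay on 24 chromosomes, with 7 of them on chromosome 16. MRPL46 and MRPS11 were the closest pair. They stand head to head on chromosome 29, MRPL46 from 7025442 to 7033219 on the minus strand and MRPS11 from 7033378 to 7047044 on the plus strand, with 158 bases between their annotated starts. MRPL46, of the large subunit, had 15.1, 14.8, 12.9, 13.1 and 10.9 normalized counts on HFr and 12.6, 12.5, 13.2, 7.08 and 16.5 on chow. MRPS11 had 21.5, 22.2, 16.1, 18.4 and 20.6 on HFr and 12.1, 16.9, 17.6, 19.2 and 17.0 on chow. The lowest animal was chow animal 4 for MRPL46 and chow animal 1 for MRPS11, so the pair did not share its extremes. The log2 fold changes were 0.10 (SE 0.21) for MRPL46 and 0.27 (SE 0.17) for MRPS11.

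The precision of these comparisons differed between genes. Counts were most numerous for MRPS15, MRPL40, MRPS35, MRPL51 and MRPL37, which had 57 to 529 estimated counts per library. MRPL41, with 44 to 210, had the same mean count as MRPL37. Without transcript lengths these counts do not rank the genes by level. MRPL40 had 52.8 ± 4.53 (SD, n = 5) normalized counts on HFr and 50.7 ± 7.77 (SD, n = 5) on chow. The estimate was 0.06 with an SE of 0.16. MRPL51 was the least variable of the tested genes, with a coefficient of variation of 10.8% over the 10 animals, and MRPL37 had 34.0 ± 6.18 (SD, n = 5) on HFr and 29.3 ± 2.88 (SD, n = 5) on chow. High counts did not always bring low spread. MRPS15 had 59.2, 43.3, 67.8, 50.7 and 105 on HFr, where animal 5 stood above all others, and 40.2 to 89.7 on chow. MRPS35 had 29.9 to 65.5 on HFr and 39.4 to 58.1 on chow, so that HFr animals were at both ends of the range.

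Variation between animals of the same diet was on the low side of the table. The median biological coefficient of variation in edgeR was 22.6% over the 52 genes, against 25.0% over all tested transcripts and 24.7% over the 6950 transcripts in the same range of mean normalized count. It was under the fitted trend for 43 of the 52 genes (82.7%), as it was for 70.3% of all transcripts. This is a description and was not tested. The extremes were MRPS10 at 16.7% and MRPS34 at 49.7%. MRPS34, singled out after its values were seen, had 17.3 normalized counts in HFr animal 4, 14.2 in chow animal 1 and 1.38 in chow animal 5, from 3 to 78 estimated counts per library.

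The 7 genes without enough counts for the test were MRPL3, MRPL9, MRPL36, MRPL43, MRPL44, MRPL50 and MRPS6. Summed over 5 animals, MRPL44, an RNase III fold protein, had 18 counts on HFr and 16 on chow, and MRPL3, which contacts the peptidyl transferase centre, had 25 and 19. MRPL3 had 0 counts in chow animal 5, which allows up to 3. MRPL36 had 59 counts on HFr and 49 on chow, and MRPL43 had 48 and 51. For MRPL9 the sums were 37 and 39, for MRPL50 20 and 26, and for MRPS6 33 and 32. Fitted without the filter on low counts, their log2 fold changes ran from -0.43 for MRPL50 to 0.44 for MRPL3, with SEs of 0.47 to 0.59. At this depth no difference between the diets was detected in these 7 genes, and the smallest unadjusted p of that edgeR fit was 0.42, for MRPL50.

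Other genes of mitochondrial translation were read from the same fit. The lists were written from general knowledge, and no list held a gene with an adjusted p under 0.05. The mitoribosome proteins under other names numbered 5 tested genes, of which 4 were higher on HFr, with a median log2 fold change of 0.09. They were AURKAIP1 (0.09), CHCHD1 (0.12), DAP3 (0.11), GADD45GIP1 (0.06) and PTCD3 (-0.03), and none had an unadjusted p under 0.05. Of 11 mitochondrial translation factors and related genes, LETM1 and OXA1L among them, 7 were higher and the median was 0.02. In this list GFM1, the elongation factor that moves the ribosome along the message, had an unadjusted p under 0.05. Of all tested transcripts, 2.23% were lower with such a p. The next smallest p-values were those of LETM1 (0.21) and GFM2 (0.25), neither of them under 0.05. GFM1 had 21.9, 20.6, 18.6, 17.1 and 18.6 normalized counts on HFr and 26.3, 24.1, 27.1, 18.2 and 29.9 on chow. All HFr animals were below 4 of the chow animals, and chow animal 4 lay among them. The estimate for GFM1 was -0.38 on the log2 scale (SE 0.17, unadjusted p = 0.0372 in edgeR), and the unadjusted p was under 0.05 in 13 of 25 alternatives. It rose to between 0.0620 and 0.0857 without HFr animal 3, 4 or 5 or without chow animal 1, 3 or 5, and was 0.281 with scaling by library size only.

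Of 15 assembly factors and rRNA modifying enzymes, 10 were higher, with a median of 0.13, which was 0.013 without chow animal 5 and 0.0034 with no filter on low counts. FASTKD2, an RNA-binding protein needed for assembly of the large subunit, was the gene of this list with an unadjusted p under 0.05. It had 15.1, 18.2, 23.0, 25.5 and 23.3 normalized counts on HFr and 37.2, 30.0, 30.1, 20.2 and 34.0 on chow. Every HFr animal was under 4 of the 5 chow animals. The estimate for FASTKD2 was -0.53 on the log2 scale (SE 0.20, unadjusted p = 0.0182 in edgeR), beside the 2.23% of all transcripts lower with such a p. The unadjusted p in edgeR was 0.0521 without chow animal 1 and 0.122 with scaling by library size only. TFB1M, which methylates the small rRNA, and MRM2, which methylates the large rRNA, had log2 fold changes of -0.43 (SE 0.26) and 0.29 (SE 0.21).

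Of 11 mitochondrial aminoacyl-tRNA synthetases and related enzymes, 8 were higher with a median of 0.18, which was 0.01 without HFr animal 4. None had an unadjusted p under 0.05, and the smallest were those of QRSL1 (-0.36), AARS2 (0.27) and IARS2 (0.27). Of 13 genes of mitochondrial transcription and RNA stability, 8 were lower with a median of -0.10, and again none had an unadjusted p under 0.05. The smallest p-values there belonged to the transcription terminator family member MTERF1 (-0.37), the polynucleotide phosphorylase PNPT1 (0.35) and the helicase SUPV3L1 (-0.26). Among the nuclear regulators of these genes, 3 of 5 tested were higher with a median of 0.14, which was -0.12 without HFr animal 2 and -0.02 without chow animal 5. ESRRA, a nuclear receptor that regulates mitochondrial genes, was the only one with an unadjusted p under 0.05 (0.47, unadjusted p = 0.0103 in edgeR), beside PPRC1 (-0.30) and GABPB1 (-0.17). It had 33.1 to 45.3 normalized counts on HFr and 22.1 to 32.1 on chow, so that the diets did not overlap, as in 0.541% of all tested transcripts. Its unadjusted p was under 0.05 in 24 of 25 alternatives and 0.198 in edgeR with scaling by library size only. Of all tested transcripts, 2.06% were higher on HFr with such a p.

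The cytosolic ribosome and the respiratory chain stand beside the mitochondrial ribosome as its counterpart in the cytosol and as the destination of its products. Both lists were drawn by symbol, with the limits given above. The 23 tested cytosolic ribosomal protein genes had a median log2 fold change of 0.05, with 16 higher and none with an unadjusted p under 0.05. The median ran from 0.0018 without HFr animal 1 to 0.12 without chow animal 5. The 3 smallest p-values belonged to RPS19BP1 (0.34), a binding partner taken in by its symbol, RPL32 (0.58) and RPL35A (-0.23). Without chow animal 1 the estimate for RPL32 was 0.97 (unadjusted p = 0.0110 in edgeR), and without chow animal 4 that for RPS19BP1 was 0.46 (unadjusted p = 0.0239 in edgeR). Of the 58 tested nuclear genes of the respiratory chain and ATP synthase, 45 were higher, with a median of 0.15, which was 0.061 without HFr animal 2. ATP5F1D and NDUFA13 had an unadjusted p under 0.05, with log2 fold changes of 0.43 (SE 0.19) and 0.46 (SE 0.21), beside the same 2.06% of all transcripts. They had one in 15 and 14 of 25 alternatives. The unadjusted p of ATP5F1D was at most 0.103 without HFr animal 2 or 4 or without chow animal 1, 3 or 5, and that of NDUFA13 at most 0.170 without HFr animal 2, 4 or 5 or without chow animal 1, 3, 4 or 5. With scaling by library size only it was 0.226 for ATP5F1D and 0.235 for NDUFA13. NDUFS6 had a log2 fold change of 0.62 with an SE of 0.33 (unadjusted p = 0.0838 in edgeR). HFr animal 5 had 8.51 normalized counts of NDUFS6, the other HFr animals 27.4 to 37.9 and the chow animals 13.6 to 28.0. Its log2 fold change was 0.87 without HFr animal 5 (unadjusted p = 0.00176 in edgeR) and 0.78 without chow animal 5 (unadjusted p = 0.0418 in edgeR), and its p was 0.0480 in edgeR with no filter on low counts. No difference between these lists was tested.

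Since the mitochondrial ribosome serves the transcripts of the organelle, whose share of counts differed 2.12-fold between animals, the genes were also fitted against that share. The fit covered 8324 nuclear transcripts, with mitochondrial transcripts left out of the library and with diet as a second term. A slope is a log2 change per 10 percentage points of the mitochondrial share. The normalized counts given beside the slopes are those of the diet comparison, whose libraries kept the mitochondrial transcripts. Of the 51 tested genes, 30 had a falling and 21 a rising slope, with a median of -0.03 against 0.0028 over all transcripts. An unadjusted p under 0.05 was reached by 5 of the 51, or 9.80%, when 12.6% of all tested transcripts reached it. None had an adjusted p under 0.05 in edgeR, as 0.505% of all transcripts did.

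The 5 genes were MRPL28, MRPS14, MRPS26, MRPL18 and MRPL52. Of these, 3 fell, where 6.37% of all transcripts fell with such a p, and 2 rose, where 6.25% did. The mitochondrial shares were 61.6%, 41.8%, 67.8%, 62.2% and 44.0% in HFr animals 1 to 5 and 57.1%, 34.7%, 43.0%, 73.6% and 68.7% in chow animals 1 to 5. MRPL28, the counterpart of bacterial L28, had 9.80, 13.5, 8.47, 12.7 and 13.7 normalized counts on HFr and 8.45, 16.2, 15.4, 6.06 and 8.27 on chow. The 4 animals with the lowest shares, from both diets, had the 4 highest values of MRPL28. The slope of MRPL28 was -0.30 (SE 0.08, unadjusted p = 0.00164 and adjusted p = 0.125 in edgeR). The slope was -0.36 in the chow animals alone (unadjusted p = 0.00706 in edgeR) and -0.20 in the HFr animals alone (unadjusted p = 0.188 in edgeR).

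MRPS14, of the small subunit, had 3.01, 6.73, 4.03, 1.78 and 4.55 on HFr and 2.51, 5.26, 3.67, 2.02 and 1.84 on chow. The highest values again belonged to animals with low shares, with HFr animal 3 an exception, and the slope was -0.40 (SE 0.12, unadjusted p = 0.00609 and adjusted p = 0.198 in edgeR). MRPL18 had 3.39, 7.18, 3.63, 5.11 and 10.5 on HFr and 4.57, 6.35, 6.79, 5.56 and 1.84 on chow, with a slope of -0.33 (SE 0.12, unadjusted p = 0.0178 in edgeR). MRPS26, a small subunit protein without a bacterial counterpart, had a rising slope of 0.36 (SE 0.13, unadjusted p = 0.0171 in edgeR). It had 14.7, 5.61, 19.8, 7.33 and 5.94 on HFr and 14.9, 7.01, 6.05, 6.57 and 15.2 on chow. Its 4 highest values were in animals with high shares, while HFr animal 4 and chow animal 4 had high shares and low values. MRPL52 had the smallest of the 5 slopes, 0.19 (SE 0.08, unadjusted p = 0.0398 in edgeR).

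Leaving out 1 animal at a time, the unadjusted p of MRPL28 and MRPS14 stayed under 0.05 in 10 of 10 fits, that of MRPS26 and MRPL18 in 9 and that of MRPL52 in 4. Without HFr animal 3 the p of MRPS26 was 0.0590, and without HFr animal 5 that of MRPL18 was 0.0542. Nuclear counts are what the mitochondrial share leaves of a library. They were 1802230 to 2657103 in the 4 animals with the lowest shares and 864571 to 1887776 in the other 6, whereas total counts were 3097685 to 4663431 and 2977282 to 4992505. In an alternative chosen after the values were seen, the log2 of the nuclear counts took the place of the share. MRPL28, MRPL18 and MRPS26 kept an unadjusted p under 0.05 in edgeR, whereas MRPS14 had 0.159 and MRPL52 0.116. MRPS12 and MRPS23 also had one under 0.05. In this fit 5 of the 51 genes did, where 13.4% of all transcripts did. Markers of some other cells moved with the share. All 4 tested macrophage markers and both tested blood cell markers rose with it at an unadjusted p under 0.05 in edgeR. Of 10 hepatocyte markers, 2 fell with such a p. Over all transcripts 6.25% rose and 6.37% fell. None of the tested endothelial, cholangiocyte, lymphocyte or stellate cell and fibroblast markers had such a p. Summed normalized counts were 28.9 to 143 for macrophage and 61.1 to 346 for blood cell markers. The part of these cells in the slopes was not tested.

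**Figure D4:**
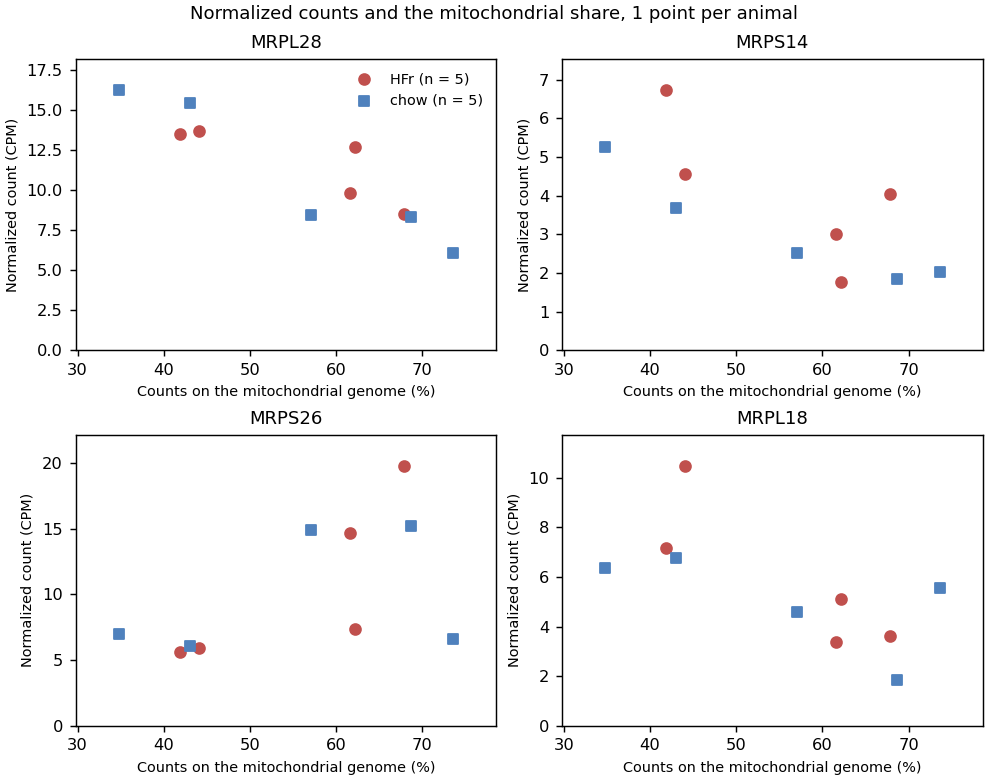
Normalized counts (CPM, y axis) of MRPL28, MRPS14, MRPS26 and MRPL18 against the percent of counts on the mitochondrial genome (x axis), with 1 point per animal coloured by diet. MRPL28 is at 13.5 or above in the 4 animals with shares of 44.0% or less and at 12.7 or below in the others. The diets are mixed along the x axis in each panel. Values are scaled as in the diet comparison, with mitochondrial transcripts kept in the library.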

How the data were processed

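Polyadenylated RNA of 10 liver biopsies was sequenced as 100 base paired-end reads from stranded TruSeq libraries. To obtain estimated counts per Ensembl transcript, the authors mapped quality-filtered reads to ChlSab1.1 and ran the expectation-maximization step of Partek Flow. The submitters' processing notes name CASAVA 1.8, FastQC and STAR 2.5.3a. Strand use in this counting is not given in the sources used here. The normalized signal values deposited by the authors are the same values scaled by TMM, constant within a sample to 0.00147%. They were used only for an alternative with the study's equal-variance test. Here that test was run on their log2 values with a small offset, for the 7948 transcripts tested in edgeR. The study's description of its test on transcripts gives neither the log2 step nor the offset. Coordinates come from the deposited tables, are 1-based and leave out the listed stop.

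Counts were rounded (97.8% were whole to within 1e-09) and filtered with filterByExpr in edgeR (minimum count of 10 and minimum total of 15). For HFr against chow, edgeR's quasi-likelihood test was run on TMM-scaled libraries, with diet as the only term and Benjamini-Hochberg adjustment over all tested transcripts at 0.05. Standard errors are the fold change divided by the square root of F. Versions were DESeq2 1.42.0, limma 3.58.1, edgeR 4.0.16 and R 4.3.3. The edgeR tests were tried first on simulated counts, with the same biological variation for every transcript. Of simulated log2 changes of 1 between the diets, 96.0% had an unadjusted p under 0.05 and 47.5% an adjusted p under 0.05. Of simulated slopes of 0.25 per 10 points, 56% and 10% did. Transcripts without a simulated diet change had an unadjusted p under 0.05 in 4.13%. Each animal is 1 replicate, and libraries held 2977282 to 4992505 counts, which sets the precision of genes with few counts.

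The members and gene lists were chosen with earlier results of these data known. Named are the 10 tested members of smallest p, those whose diets do not overlap, the 5 with the most and the 5 with the fewest counts, the 5 of smallest p for the mitochondrial share, members with a role of their own, the untested members and 3 genes of each related list. Marker lists covered skeletal muscle, endothelium, fibroblasts with stellate cells, cholangiocytes, blood cells, lymphocytes, macrophages and hepatocytes. None of their tested genes had an unadjusted p under 0.05 for diet in edgeR. Alternatives were DESeq2, its size factors, library size only, a stricter or no filter on low counts, sums by gene, counts not rounded, limma with a pseudocount of 1 or 0.1, the study's equal-variance test, voom with sample weights, robust estimation, a block on the replicate number, the mitochondrial transcripts left out or their percent as a covariate, and each animal left out. Levels per transcript length and promoter sequences were not analysed here.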

Additional observations from a re-analysis of the deposited data

Results flagged for a closer look

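Among 110 groups of 5 animals examined for a single distant value, 5 held one, where chance alone gives about 1 in 20. MRPL51 had 29.5 normalized counts in chow animal 1, the lowest, and 39.1 to 40.4 in the other chow animals. MRPL12 had 16.1 in HFr animal 2, the highest, and 7.72 to 9.80 in the other HFr animals. IARS2, the mitochondrial isoleucyl-tRNA synthetase gene, had 5.50 in chow animal 3 and 3.94 to 4.14 in the other chow animals. SUPV3L1, a helicase of mitochondrial RNA turnover, had 24.9 in HFr animal 1 against 16.9 to 18.4 in the other HFr animals, and 28.5 in chow animal 5 against 20.4 to 22.6 in the other chow animals. Without HFr animal 1, the unadjusted p of SUPV3L1 between the diets was 0.0499 from edgeR, with a log2 fold change of -0.37. No explanation of these values was tested.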

How the results depend on the processing

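The number of genes with an adjusted p under 0.05 was 0 in all 25 alternatives. The number with an unadjusted p under 0.05, 1 as reported, was 0 with library size only, 2 with the study's equal-variance test (MRPL53 and MRPL55) and 0 to 3 when 1 animal was left out. It was 0 without HFr animal 1, 3 without HFr animal 5 (MRPL53, MRPL54 and MRPS25), and 2 without HFr animal 2 or 4 or without chow animal 1 or 3. The other alternatives gave 1. Of all tested transcripts, 4.29% had such a p as reported, 1.55% with library size only and 4.14% with the equal-variance test. With 1 animal left out that share was 3.22% to 5.06%. The median log2 fold change of the genes ran from -0.0195 (without chow animal 1) to 0.086 (equal-variance test), and was above 0 in the other 24. With 1 animal left out, the median of each related list moved by over 1.5 times in at least 1 fit. It ran from -0.076 to 0.10 for the translation factors, from 0.0093 to 0.198 for the aminoacyl-tRNA synthetases, from 0.013 to 0.156 for the assembly factors, from -0.121 to 0.232 for the nuclear regulators and from -0.137 to -0.026 for transcription and RNA stability. It ran from 0.025 to 0.116 for mitoribosome proteins under other names, from 0.0018 to 0.115 for cytosolic ribosomal genes and from 0.061 to 0.191 for respiratory genes. The cause of these moves was not tested.

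Over the 53 named genes, 31 of 1311 values under the alternatives changed sign, in 12 genes, none of them with an unadjusted p under 0.05 in the reported fit. With the replicate number as a block, 1 of the 52 genes had an unadjusted p under 0.05 and 271 of all transcripts did, against 341 without it. The numbers did not pair the animals: correlations of same-numbered animals ran from -0.287 to 0.0986, and 0 of 5 HFr animals correlated best with the chow animal of its number. For the slopes on the mitochondrial share, no alternative gave an adjusted p under 0.05, and the median slope ran from -0.050 to -0.0068 where the share or its log2 ratio was the measure.

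The filter on low counts left 7 of 59 genes untested. In 7 of the 52 tested genes, with mean counts of 10.9 to 33.6 per library, the interval reached beyond a 2-fold change. Where an interval ends depends on the estimate as well as on its SE. MRPL53, 1 of the 7, had a log2 fold change of 0.56 with an SE of 0.21, beside a median SE of 0.22 over the 52 genes. The part of low counts in the reach of these 7 intervals was not tested.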
